A study of Mus musculus with 12 samples.

Results

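Transcripts of 8 genes that make up the PGC-1 coactivator system and its nuclear receptors were followed in interscapular brown adipose tissue. The genes were chosen by name: the coactivators Ppargc1a, Ppargc1b and Pprc1, the estrogen-related receptors (ERR) Esrra, Esrrb and Esrrg, the coregulator Perm1 and the opposing corepressor Nrip1. They are 8 of the 53379 gene IDs counted, and all 8 were among the 15208 genes with enough counts to be tested. The mice were 12-week-old C57BL/6 on chow, killed at zeitgeber time 9, and fell into 4 groups of 3 pools: control littermates (WT) at room temperature, littermates lacking Cdk7 in brown adipose tissue (Cdk7 bKO, here KO) at room temperature, WT after 6 h in the cold with food, and KO after 6 h in the cold with food. Each library was made from the RNA of 2 mice of the same genotype and condition, so a replicate is a pool of 2 mice and its value hides the difference between them. The sources used here give no Cre driver, sex, cold temperature or sequencing date, so no batch could be compared with the groups.

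Brown adipose tissue burns fuel to make heat, and it holds many mitochondria. PGC-1 coactivators do not bind DNA themselves: they dock on nuclear receptors such as the ERRs and recruit the transcription machinery to genes of mitochondria, oxidative metabolism and heat production. In brown fat, cold reaches Ppargc1a through noradrenaline and cAMP signalling, while Nrip1 (RIP140) binds many of the same receptors and recruits repressing complexes.

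Depth was 27609717 to 36792555 gene counts per library. Cdk7, the deleted gene, had 15.1 to 16.4 counts scaled to a common library size (CPM) in WT and 4.35 to 5.77 CPM in KO at room temperature, and 15.7 to 18.0 against 4.85 to 5.39 CPM in the cold, so no KO pool reached a WT pool. The scaling used TMM factors, which assume that most genes do not change. The summed level of 10 brown adipocyte markers was 13667 to 33354 CPM over the 12 pools, and no marker was at 0 in any of them. The summed level of 15 skeletal muscle markers ran from 43.1 to 1451 CPM, with Ckm and Pvalb at 0 in at least 1 library. It was highest in KO room temperature replicate 6 (1451 CPM) and WT room temperature replicate 2 (1113 CPM), and a call on the 8 genes that ended without both libraries is given with its value without them. In the values below, ± is the SD over 3 pools for a level and the standard error (SE) for a log2 change. Adjusted p were computed by the quasi-likelihood test of edgeR, adjusted by Benjamini-Hochberg over all 15208 genes, with a threshold of 0.05, and "rose" or "fell" is used of changes past it.

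**Figure D1:**
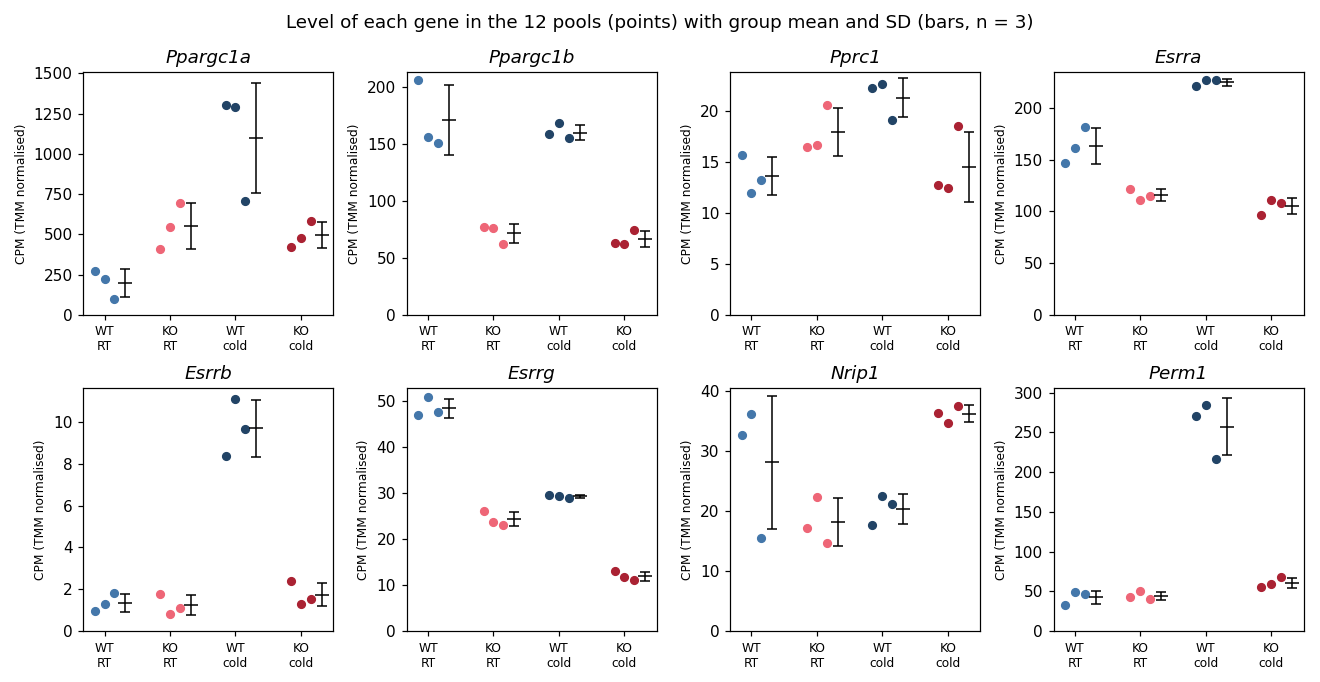
CPM (TMM normalised, linear axes from 0) of the 8 genes in each of the 12 pools, with points for pools and bars for the mean and SD of 3 pools per group. Ppargc1a, Esrrb and Perm1 stand highest in the WT pools in the cold, Ppargc1b and Esrrg are low in KO at both temperatures, and Nrip1 is high in the KO pools in the cold.

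Ppargc1a (PGC-1alpha, ENSMUSG00000029167, chromosome 5, 51454250 to 51567726, minus strand, GRCm38) is the coactivator best known for its induction by cold. Ppargc1a levels were 271, 223 and 100 CPM (WT) and 412, 544 and 698 CPM (KO) at room temperature. After cold exposure, pools held 1304, 1293 and 706 CPM of Ppargc1a (WT) and 421, 480 and 582 CPM (KO). The order of the group means was WT at room temperature (198 ± 88), KO in the cold (494 ± 81.3), KO at room temperature (552 ± 143) and WT in the cold (1101 ± 342). The 2 KO groups overlapped, and no other neighbouring pair in that order did. Ppargc1a thus rose with cold in WT, by 2.48 ± 0.41 on the log2 scale (5.57-fold, adjusted p = 0.0013). The KO change with cold was -0.16 ± 0.39 (adjusted p = 0.84). Against WT, Ppargc1a was 2.79-fold higher in KO at room temperature (1.48 ± 0.40, adjusted p = 0.018) and 2.23-fold lower in KO in the cold (-1.16 ± 0.40, adjusted p = 0.036). The difference between both cold responses was -2.64 ± 0.56 (adjusted p = 0.011). Within-group spread was wide: the highest WT pool at room temperature had 271 CPM and the lowest 100 CPM. Without the 2 muscle-rich libraries the call at room temperature was lost (1.37, adjusted p = 0.11), as were those in the cold (-1.16, adjusted p = 0.058) and for the difference (-2.53, adjusted p = 0.058). The call in the cold was lost in 9 of 23 alternatives. Without KO room temperature replicate 6 alone, the room temperature value was 1.27 (adjusted p = 0.061). In whole tissue, fewer cells of a type and less RNA per cell cannot be told apart, here and in all results that follow.

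The bases just upstream of Ppargc1a are shown because the gene had the largest cold rise of the coactivators and because cAMP-responsive factors are known to act on it. The RefSeq promoter window on GRCm38.p6, without its transcribed end, is chr5:51567727-51567975 on the minus strand. Capitals mark the motif TGACG, the core of the cAMP response element, found here on the opposite strand.

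Ppargc1a: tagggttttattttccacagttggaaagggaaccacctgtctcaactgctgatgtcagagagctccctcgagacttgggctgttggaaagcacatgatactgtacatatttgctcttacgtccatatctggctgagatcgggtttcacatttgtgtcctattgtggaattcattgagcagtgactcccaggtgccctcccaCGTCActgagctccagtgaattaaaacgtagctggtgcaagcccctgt

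The motif begins 48 bases before the gene start. TGACG was present on either strand in 20.8% of 32851 RefSeq promoter windows of 300 bases, so a match is common. It is a match of letters, not a measured binding site.

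Ppargc1b (PGC-1beta, ENSMUSG00000033871, chromosome 18, 61298136 to 61400431, minus strand) is the close relative of Ppargc1a that supports mitochondrial content and is less tied to cold. Ppargc1b levels were 206, 156 and 151 CPM (WT) and 76.7, 76.2 and 62.2 CPM (KO) at room temperature. Cold pools held 159, 168 and 155 CPM of Ppargc1b (WT) and 62.8, 62.2 and 74.7 CPM (KO). At both temperatures the KO pools all lay below the WT pools. Ppargc1b fell 2.38-fold in KO at room temperature (-1.25 ± 0.12, adjusted p = 1e-06) and 2.41-fold in the cold (-1.27 ± 0.12, adjusted p = 4.7e-07). The cold values overlapped the room temperature values in both genotypes (WT -0.09 ± 0.12, adjusted p = 0.55; KO -0.11 ± 0.12, adjusted p = 0.59). The difference between both cold responses was -0.02 ± 0.17 (adjusted p = 0.96). Both calls against WT held under all alternatives run (22 at room temperature, 23 in the cold).

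Pprc1 (PRC, ENSMUSG00000055491, chromosome 19, 46044886 to 46072915, plus strand), the third PGC-1 family member, was the scarcest of the coactivators per kilobase of exon, with group means of 2.17 to 3.39 CPM per kb. Pprc1 levels were 15.7, 12.0 and 13.2 CPM (WT) and 16.5, 16.7 and 20.6 CPM (KO) at room temperature. After cold exposure, pools held 22.3, 22.6 and 19.1 CPM of Pprc1 (WT) and 12.7, 12.4 and 18.5 CPM (KO). The KO pools lay above the WT pools at room temperature and below them in the cold. Pprc1 rose 1.57-fold with cold in WT (0.65 ± 0.15, adjusted p = 0.0027). It was lower in KO in the cold (-0.55 ± 0.15, adjusted p = 0.0063) and higher in KO at room temperature (0.40 ± 0.15, adjusted p = 0.048). The cold change in KO was -0.30 ± 0.15 (adjusted p = 0.19), and the difference between both cold responses was -0.95 ± 0.21 (adjusted p = 0.0054). The room temperature call was lost in 9 of 22 alternatives (0.20, adjusted p = 0.44, without the 2 muscle-rich libraries). Pprc1 shares 2.82% of its exon bases with Ldb1 on the opposite strand, so its value is uncertain.

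Esrra (ERRalpha, ENSMUSG00000024955, chromosome 19, 6910977 to 6921813, minus strand) is the most abundant ERR and a main partner of PGC-1 coactivators at mitochondrial genes. Esrra levels were 147, 161 and 182 CPM (WT) and 122, 111 and 115 CPM (KO) at room temperature. Cold pools held 221, 227 and 227 CPM of Esrra (WT) and 96.2, 111 and 108 CPM (KO). All WT pools in the cold were above all WT pools at room temperature, which were above all KO pools. The KO pools in the cold lay just below those at room temperature. Esrra fell 1.41-fold in KO at room temperature (-0.49 ± 0.09, adjusted p = 0.0004) and 2.14-fold in the cold (-1.10 ± 0.09, adjusted p = 1e-07). It rose 1.38-fold with cold in WT (0.46 ± 0.09, adjusted p = 0.00044), against -0.14 ± 0.09 in KO (adjusted p = 0.31), and the responses differed by -0.61 ± 0.13 (adjusted p = 0.0027). Esrra shares 1.66% of its exon bases with Trmt112 on the opposite strand and 2.07% with Mir6990, and its value is uncertain to that extent.

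Esrrb (ERRbeta, ENSMUSG00000021255, chromosome 12, 86361117 to 86521628, plus strand), better known from stem cells and the retina than from fat, was rare. Esrrb levels were 0.959, 1.31 and 1.80 CPM (WT) and 1.78, 0.826 and 1.11 CPM (KO) at room temperature. After cold exposure, pools held 8.36, 11.1 and 9.65 CPM of Esrrb (WT) and 2.38, 1.30 and 1.54 CPM (KO). The 3 WT pools in the cold, with 223, 244 and 259 counts, stood above all 9 others, whose counts were 25 to 94. Esrrb rose 7.04-fold with cold in WT (2.82 ± 0.28, adjusted p = 1.5e-06). The KO change with cold was 0.48 ± 0.29 (adjusted p = 0.3), and the responses differed by -2.33 ± 0.41 (adjusted p = 0.0011). In the cold Esrrb was 5.53-fold lower in KO (-2.47 ± 0.27, adjusted p = 3.6e-06), and at room temperature the groups overlapped (-0.14 ± 0.30, adjusted p = 0.75).

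The window of Esrrb is shown because it had the largest cold rise of the 8 genes and because it held 2 TGACG matches, in capitals, 158 and 117 bases before the gene start. It is chr12:86360867-86361116 on the plus strand of GRCm38.p6, from RefSeq.

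Esrrb: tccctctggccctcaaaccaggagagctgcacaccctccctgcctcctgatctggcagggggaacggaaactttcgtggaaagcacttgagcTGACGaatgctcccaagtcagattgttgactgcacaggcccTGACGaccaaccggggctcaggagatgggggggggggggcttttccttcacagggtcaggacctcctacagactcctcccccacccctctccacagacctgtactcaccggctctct

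A second RefSeq window of Esrrb, at an inner start, held no TGACG.

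Esrrg (ERRgamma, ENSMUSG00000026610, chromosome 1, 187608791 to 188214885, plus strand), the receptor of highly oxidative tissues, was the only ERR that fell with cold. Esrrg levels were 46.9, 50.7 and 47.4 CPM (WT) and 26.1, 23.6 and 23.1 CPM (KO) at room temperature. Cold pools held 29.5, 29.3 and 28.9 CPM of Esrrg (WT) and 13.0, 11.7 and 11.1 CPM (KO). The 4 groups did not overlap, and the order of the means was WT at room temperature, WT in the cold, KO at room temperature and KO in the cold. Esrrg was 1.99-fold lower in KO at room temperature (-0.99 ± 0.08, adjusted p = 2.3e-07) and 2.44-fold lower in the cold (-1.29 ± 0.09, adjusted p = 1.2e-08). Cold lowered it 1.65-fold in WT (-0.73 ± 0.08, adjusted p = 2.5e-06) and 2.03-fold in KO (-1.02 ± 0.08, adjusted p = 1.5e-06), and the difference between these did not pass (-0.30 ± 0.12, adjusted p = 0.076).

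Perm1 (ENSMUSG00000078486, chromosome 4, 156215868 to 156221307, plus strand) encodes a muscle-enriched regulator that is induced by PGC-1 and ERR and acts on oxidative genes. Perm1 levels were 33.4, 48.9 and 46.0 CPM (WT) and 43.1, 50.2 and 40.5 CPM (KO) at room temperature. After cold exposure, pools held 270, 285 and 217 CPM of Perm1 (WT) and 55.9, 58.9 and 68.0 CPM (KO). The WT pools in the cold stood far above every other pool. Perm1 rose 6.01-fold with cold in WT (2.59 ± 0.15, adjusted p = 1.1e-08) and 1.37-fold in KO (0.45 ± 0.14, adjusted p = 0.044), a difference of -2.14 ± 0.20 (adjusted p = 1.3e-05). In the cold it was 4.23-fold lower in KO (-2.08 ± 0.14, adjusted p = 7.9e-08), and at room temperature the groups overlapped (0.06 ± 0.14, adjusted p = 0.77). The rise in KO was lost in 9 of 22 alternatives. Perm1 is known from muscle, and the library with the most muscle transcripts, KO room temperature replicate 6, had the lowest Perm1 of its group, while the next, WT room temperature replicate 2, had the highest of its group. Without these 2 libraries the rise in KO was lost (0.38, adjusted p = 0.14), the cold rise in WT was 2.69 and the KO value against WT in the cold was -2.08.

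The window of Perm1 is chr4:156215677-156215867 on the plus strand of GRCm38.p6, from RefSeq, ending before the gene start. It is shown because Perm1 had the second largest cold rise and held the nuclear receptor motif AGGTCA, marked in capitals on the opposite strand 143 bases before the gene start.

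Perm1: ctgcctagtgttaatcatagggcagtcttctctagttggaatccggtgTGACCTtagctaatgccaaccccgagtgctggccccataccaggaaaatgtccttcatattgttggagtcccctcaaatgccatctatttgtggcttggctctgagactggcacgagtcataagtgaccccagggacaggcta

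AGGTCA was in 16.3% of the 32851 windows on either strand, and the longer ERR motif TNAAGGTCA, which contains it, was in 1.28%. None of the 12 windows that RefSeq gave for 7 of the 8 genes held TNAAGGTCA. Besides Perm1, only the window of Pprc1 held AGGTCA, and the windows of Esrra, Esrrg and Nrip1 held neither motif nor TGACG.

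Nrip1 (RIP140, ENSMUSG00000048490, chromosome 16, 76287400 to 76373827, minus strand) is the corepressor that opposes PGC-1 at many of its targets. Nrip1 levels were 32.7, 36.2 and 15.5 CPM (WT) and 17.2, 22.4 and 14.6 CPM (KO) at room temperature. Cold pools held 17.7, 22.5 and 21.1 CPM of Nrip1 (WT) and 36.3, 34.7 and 37.5 CPM (KO). The KO pools in the cold were tightly grouped and above all WT pools in the cold and all KO pools at room temperature. Nrip1 was 1.77-fold higher in KO in the cold (0.83 ± 0.29, adjusted p = 0.036) and rose 2-fold with cold in KO (1.0 ± 0.29, adjusted p = 0.047). At room temperature the groups overlapped (-0.63 ± 0.29, adjusted p = 0.11), as did the WT groups (-0.46 ± 0.29, adjusted p = 0.23). The difference between both cold responses was 1.46 ± 0.41 (adjusted p = 0.03). WT room temperature replicate 3 was low, and without it Nrip1 fell in KO at room temperature (-0.94, adjusted p = 0.00017) and with cold in WT (-0.76, adjusted p = 0.00067). The cold call against WT was lost in 9 of 23 alternatives, that in KO in 11 of 22 and the difference in 12 of 21. Without the 2 muscle-rich libraries the cold change in KO was 0.87 (adjusted p = 0.11) and the difference 1.10 (adjusted p = 0.11).

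**Figure D2:**
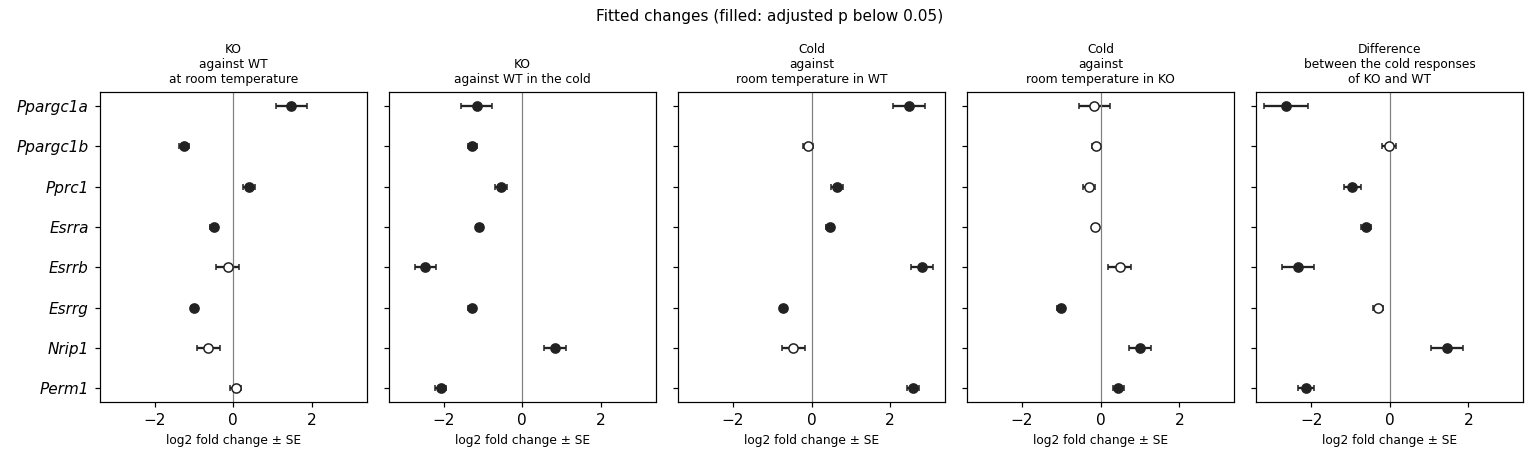
Log2 fold change of the 8 genes (points, with bars for the standard error) in each comparison, filled where adjusted p was below 0.05. In the cold, 7 of the 8 genes are lower in KO and Nrip1 is higher.

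Across the 8 genes, 2 were higher and 3 lower in the KO pools without cold, against 19.3% of all tested genes called higher and 21% called lower. In the cold, 1 was higher and 7 were lower in KO, against 25.9% and 27.8% of all genes. Cold raised 5 and lowered 1 in WT, where 23% of all genes rose and 23.2% fell. In KO it raised 2 and lowered 1, where 7.29% rose and 7.56% fell. The cold responses of KO and WT differed upwards for 1 gene and downwards for 5, against 10.6% and 12.9% of all genes. The median log2 fold change of the 8 was -1.21 for KO against WT in the cold, where that of all genes was 0.01. The comparisons share pools, so their counts are not independent.

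Another scaling ended 6 calls on the 8 genes and added 1. With library totals in place of TMM factors, the median of all genes was 0.449 higher in KO than in WT in the cold and 0.218 higher at room temperature. Cold against room temperature gave a median of -0.227 in WT under that scaling. Relative to WT, Esrra in KO at room temperature then had -0.29 (adjusted p = 0.062), Ppargc1a in the cold -0.72 (adjusted p = 0.11) and Pprc1 in the cold -0.12 (adjusted p = 0.44), each below the median of all genes. The cold rise of Esrra in WT was 0.26 (adjusted p = 0.081), the difference of its cold responses -0.38 (adjusted p = 0.12) and the cold rise of Perm1 in KO 0.47 (adjusted p = 0.092). Ppargc1b with cold in WT had -0.27 (adjusted p = 0.042), close to the median of all genes. Ppargc1b, Esrra, Esrrb, Esrrg, Perm1 and Nrip1 kept their calls against WT in the cold under it (-0.83, -0.66, -2.02, -0.85, -1.64 and 1.27).

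The balance within the families shifted. Per kilobase of exon, Ppargc1a made up 38.6 ± 9.66% of the summed PGC-1 level in WT at room temperature, and 79.4 ± 5.38, 78.4 ± 5.60 and 79.7 ± 1.26% in KO at room temperature, WT in the cold and KO in the cold. Ppargc1b made up 58.4 ± 8.96% in WT at room temperature and 17.8 to 20.0% in the other groups. WT at room temperature was thus the only group in which Ppargc1b led, and in each of its 3 pools the share of Ppargc1b was above that in every other pool. The summed PGC-1 level was 75.0 ± 20.0 CPM per kb in WT at room temperature, 105 ± 20.2 in KO at room temperature, 211 ± 53.5 in WT in the cold and 94.0 ± 14.5 in KO in the cold.

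**Figure D3:**
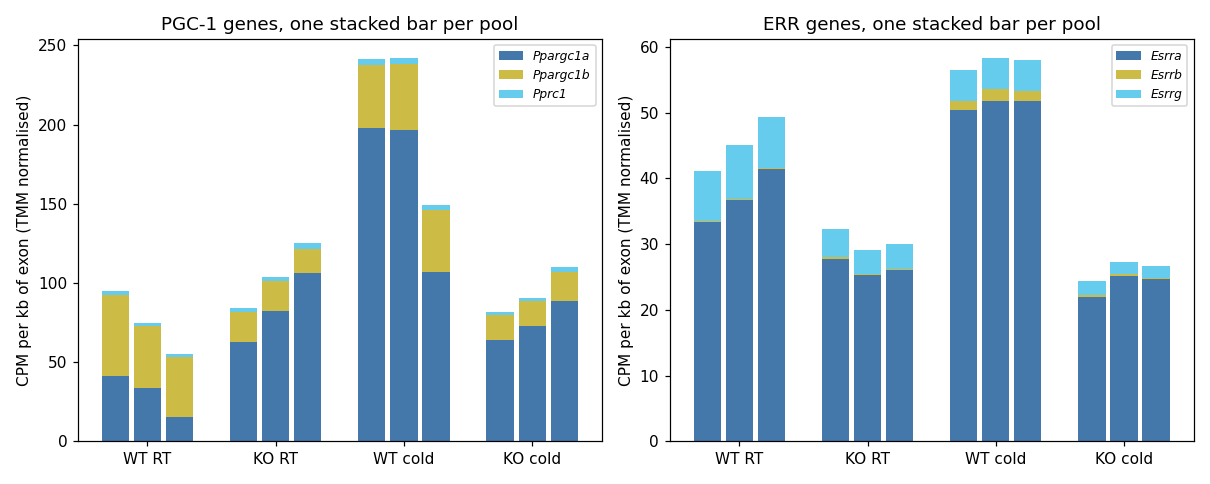
Stacked bars, starting at 0, of the CPM per kb of exon of the PGC-1 genes (left) and of the ERR genes (right), with 1 bar per pool and 3 pools per group. Ppargc1b holds most of the bar in the WT pools at room temperature only, and Esrra holds most of every ERR bar.

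Esrra made up 82.2 ± 1.48% of the summed ERR level in WT at room temperature and 91.5 ± 1.43% in KO in the cold. Esrrg made up 17.3 ± 1.58% and 7.40 ± 1.01% in the same groups. Esrrb made up at most 3.14% in any pool. The summed ERR level was 45.2 ± 4.08 CPM per kb in WT at room temperature, 30.5 ± 1.61 in KO at room temperature, 57.6 ± 0.936 in WT in the cold and 26.1 ± 1.53 in KO in the cold. On the same scale, the WT pools had 8.57 to 12.5 CPM per kb of Perm1 at room temperature and 55.7 to 73.1 in the cold, a range that includes the summed ERR level there. Group means of Nrip1 were 1.58 to 3.16 CPM per kb, below those of Ppargc1a and Esrra in every group.

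The ratio of Ppargc1a to Nrip1 counts sets coactivator against corepressor within each pool, so the scaling drops out. It was 8.28, 6.16 and 6.45 in WT and 24.0, 24.3 and 47.8 in KO at room temperature. Cold pools had ratios of 73.9, 57.4 and 33.4 in WT and 11.6, 13.8 and 15.5 in KO. No groups overlapped except KO at room temperature with WT in the cold. As log2 ratios, cold changed the mean by 2.92 in WT and by -1.16 in KO, and KO differed from WT by 2.13 at room temperature and -1.94 in the cold. Each had p = 0.1 by a 2-sided exact permutation test, the smallest that 3 pools against 3 allow (0.13 after Benjamini-Hochberg adjustment over the 8 comparisons of both ratios). The ratio of Ppargc1a to Ppargc1b separated WT at room temperature (0.662 to 1.43) from the other groups (4.56 to 11.2).

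**Figure D4:**
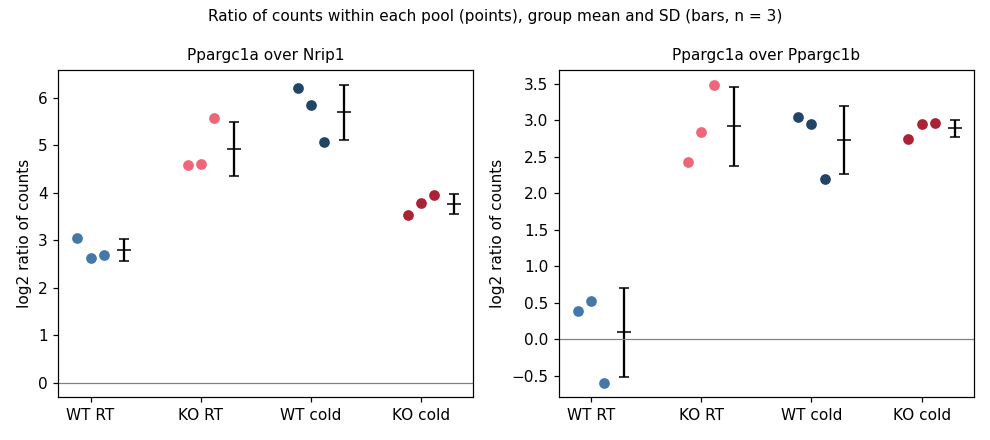
Log2 ratio of the counts of Ppargc1a to Nrip1 (left) and to Ppargc1b (right) in each pool, with the mean and SD of 3 pools per group. The left ratio goes up with cold in WT and down with cold in KO, and the right ratio is low in WT at room temperature only.

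Most genes known as targets of ERR and PGC-1 were lower in KO at both temperatures with TMM scaling, and fewer with library totals. Of all tested genes, 21% were called lower and 19.3% higher in KO without cold, and 27.8% and 25.9% with cold. Of 25 listed targets, 24 were tested, and 17 were lower and 0 higher in the KO pools without cold (median -0.41, all genes 0.0), and again 17 and 0 in the cold (median -0.44). They include Tfam, the mitochondrial transcription factor (-0.54 at room temperature, -0.76 in the cold), Cs, citrate synthase (-0.51 and -0.66), and Sdhb, a subunit of succinate dehydrogenase (-0.55 and -0.39). Cs had 2068 to 2161 CPM in WT and 1439 to 1526 in KO at room temperature, and 1886 to 2064 against 1178 to 1336 in the cold. Vegfa, the angiogenic factor, was lower as well (-0.34 and -0.93). Cold in WT raised 4 and lowered 3 of the 24 (median 0.0), where 23% of all genes rose and 23.2% fell. Cycs, cytochrome c, rose (0.43, adjusted p = 0.00099) and Acadm, which starts oxidation of medium-chain fatty acids, fell (-0.43, adjusted p = 0.0024). In KO cold lowered 2 of the 24, where 7.56% of all genes fell. The responses differed for 3 of the 24, and for 23.5% of all genes. With library totals, KO had 6 lower and 1 higher without cold and 4 and 4 with cold. The medians were -0.20 and 0.0, where those of all genes were 0.218 and 0.449 under that scaling. In all, 6006 genes were called either way without cold and 8954 with it. With library totals, cold in WT raised 1 and lowered 6 (median -0.20, all genes -0.227). Without the 2 muscle-rich libraries, 10 were lower in KO without cold (median -0.39) and 17 with cold (median -0.44). In that setting, cold in WT raised 1 and lowered 1. Over all genes, 3566 rather than 6138 were then called without cold, 7928 rather than 8161 with cold, and 5734 rather than 7034 for cold in WT. The muscle genes Cox6a2 and Ckmt2, also listed, had large errors and passed in no comparison.

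**Figure D5:**
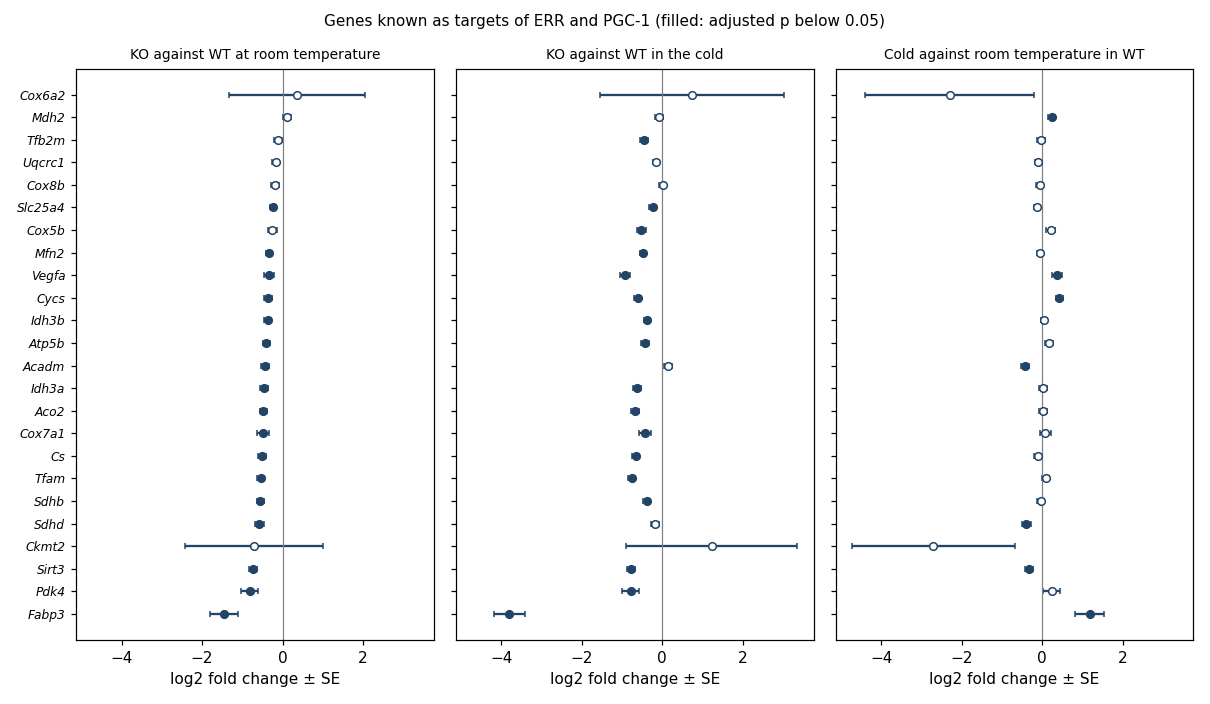
Log2 fold change (points, with bars for the standard error, 1 shared axis) of the 24 tested ERR and PGC-1 target genes in KO against WT at room temperature, in the cold, and in WT in the cold against room temperature. Filled points have adjusted p below 0.05. Most points lie left of 0 in the first and second panels and near 0 in the third.

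Regulators upstream of PGC-1 were mixed. Of 18 tested, KO at room temperature had 2 higher and 5 lower, where 19.3% and 21% of all genes were called, and KO in the cold 2 and 9, where 25.9% and 27.8% were. Prkaa1 and Prkaa2, catalytic subunits of AMP-activated kinase, were lower (-0.49 and -0.32 at room temperature, -0.68 and -1.03 in the cold), and Crtc2, a coactivator of CREB, was higher at room temperature (0.52). Cold in WT raised 7 and lowered 2, where 23% of all genes rose and 23.2% fell. The former include Creb1 (0.34) and Atf2, a stress-activated factor that acts on Ppargc1a (0.71). In KO cold lowered 1, where 7.56% of all genes fell. Atf2 shares exon bases with another annotated gene, as does Ncoa1 below, so both are uncertain. With library totals, KO had 5 higher and 2 lower without cold and 5 and 3 with cold, and cold in WT raised 3 and lowered 4, so the balance turned in each. The median of all genes in these comparisons was 0.218, 0.449 and -0.227 under that scaling. Without the 2 muscle-rich libraries, KO at room temperature had 0 higher and 2 lower, so the call on Crtc2 was lost. In that setting, cold in WT raised 5 and lowered 1. Over all genes, 3566 rather than 6138 were then called at room temperature and 5734 rather than 7034 for cold in WT.

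Partners of the coactivators and receptors were described by 3 lists, to be read against the same shares of all genes. Of 9 tested coactivator partners, KO at room temperature had 1 higher and 3 lower, and KO in the cold 0 and 7. Cold in WT raised 3 of them and lowered 4 (median 0.06), where 23% of all genes rose and 23.2% fell. Med1, the Mediator subunit that nuclear receptors contact, rose with cold in WT (0.77) and was lower in KO in the cold (-0.87). With cold in WT, Ncoa1 rose (0.84) and Ncoa2 fell (-0.35). Of 13 tested transcription factor partners, 1 was higher in KO and 6 were lower with no cold exposure, and 0 and 7 after it. Ppara, the fatty acid receptor, was -1.43 and -1.32, and Rxrg, a retinoid X receptor, -0.95 and -1.45. Of 9 tested corepressor partners, 1 was higher in KO and 4 were lower without cold, and 3 and 2 with it. The median of this list in KO against WT in the cold was 0.0. Hdac2, a deacetylase, was lower in KO at room temperature (-0.39) and in the cold (-0.42). Hdac9, another deacetylase, fell with cold in WT (-1.0) and was higher in KO in the cold (0.89), but was rare, with 0.363 to 1.66 CPM over the 12 pools. With library totals the coactivator partners had 3 higher and 1 lower in KO without cold and 1 and 2 with cold. The transcription factor partners had 3 and 4, then 6 and 4, and the corepressor partners 1 and 0, then 7 and 1. The median of all genes was 0.218 without cold and 0.449 with it under that scaling. In the cold the medians of the 3 lists, in the same order, were 0.08, -0.07 and 0.43. Without the 2 muscle-rich libraries the corepressor partners had 1 higher and 2 lower in the cold, and none of the 3 lists had a member that was higher in KO at room temperature.

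Summed marker transcripts of several cell types differed between KO and WT pools. The summed level of 10 macrophage markers was 46.8 to 61.0 CPM in WT and 145 to 173 in KO at room temperature, and 69.6 to 74.6 and 183 to 236 in the cold. Among them Itgam, which shares 68.67% of its exon bases with Gm49368 on the same strand, had 0 CPM in all 12 pools. The brown adipocyte markers gave 19869 to 22822 CPM in WT and 13667 to 16570 in KO at room temperature, and 30456 to 33354 and 15340 to 16571 in the cold. The 8 endothelial markers gave 486 to 595 and 721 to 732 CPM, then 640 to 656 and 697 to 830, in the same order of groups. The 8 smooth muscle and pericyte markers gave 590 to 641 and 667 to 771 CPM, then 530 to 542 and 631 to 731. Such sums follow their most abundant genes. With cold in WT, mean Ucp1 went from 7305 to 16089 CPM and mean Dio2 from 524 to 3445 CPM. Of the 10 brown adipocyte markers, 3 rose and 4 fell with cold in WT, where 23% of all genes rose and 23.2% fell. Against WT, 7 were lower in KO without cold and 5 with it, and 0 were higher. Of all genes, 21% were lower and 19.3% higher in KO without cold, and 27.8% and 25.9% with it. Rgs5 alone had group means of 296 to 421 CPM. Of the 8 smooth muscle and pericyte markers, 5 were higher and 2 lower in KO without cold. With cold, 5 were higher and 1 lower, Des (-2.36). These counts stand against the same shares of all genes. The part of these cell types in the changes of the 8 genes was not tested.

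Genes with the most similar profiles were found by the root mean square difference of log2 CPM, each gene centred on its mean over the 12 libraries, among 10302 genes. This is a description of 12 points that share their groups. Esrrg lay closest to Cxxc5, a zinc finger protein (0.086), then Zfhx4 (0.153) and Ebf2, a brown adipocyte transcription factor (0.172). Cxxc5 had 18.9 ± 0.495 CPM in WT and 9.42 ± 0.380 in KO at room temperature, and 11.5 ± 0.443 and 4.68 ± 0.107 in the cold. Ppargc1b lay closest to Plbd1 (0.146), Acvr1c, the receptor ALK7 (0.171), and Tpcn1 (0.171). Esrra lay closest to Riox2 (0.109), Pmm2 (0.113) and Plpp6 (0.117). Perm1 lay closest to the chaperones Hspa4l (0.298), Hsp90ab1 (0.311) and Hspa8 (0.323). Hspa8 had 530 ± 31.0 and 709 ± 54.7 CPM in WT and KO at room temperature, and 4520 ± 442 and 1319 ± 70.0 in the cold. Esrrb lay closest to Ckb, a creatine kinase (0.432), Cend1 (0.482) and again Hspa8 (0.484). Ppargc1a lay closest to Lclat1 (0.311), Fam117a (0.350) and Nnmt, nicotinamide N-methyltransferase (0.402). Nrip1 lay closest to Irf2bp2 (0.301), Lrrc58 (0.305) and Abca6 (0.313). Exons of Cxxc5, Ebf2, Acvr1c, Riox2, Pmm2, Plpp6, Hspa8, Fam117a, Irf2bp2 and Lrrc58 overlap other annotated genes, so their counts are uncertain.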

How the data were processed

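RNA of 12 pools (2 mice each, 250 ng per mouse) was sequenced. Reads were aligned to GRCm38 with STAR and counted with HTSeq (versions not given), per the submitters' processing notes. The deposited values were raw counts per gene. Only the names of the deposited files mention a reverse strand setting, so genes with overlapping exons are called uncertain. The 5 HTSeq summary lines were left out of all sums: 26.6 to 30.2% of a file's total were reads with several alignments, 1.64 to 2.26% outside genes, 1.07 to 1.37% ambiguous and 1.12 to 1.86% not aligned.

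In R 4.3.3, edgeR 4.0.16 (filterByExpr, TMM, robust quasi-likelihood fit with 4 group means over 12 libraries) was run on 15208 genes and its code was tested on simulated data. P-values set group differences against the spread between these pools, which was estimated over all 4 groups with information shared between genes. The biological coefficient of variation was 13.6%. Alternatives used DESeq2 1.42.0, limma 3.58.1 (voom), median-ratio factors, library totals, other filters, mitochondrial genes left out, only the 6 libraries compared, a muscle covariate, a replicate block and left-out libraries. Settings of the gene lists were added after the data were seen. Levels per kb used exon lengths of GENCODE M21. The 8 genes and all lists were chosen with earlier results of these data known. Named genes were the 8, up to 4 genes with the smallest p per list described and the 3 most similar profiles (genes with mean log2 CPM of at least 1, members spanning over 1 log2 unit, which leaves out Pprc1), besides Cdk7. A gene taken by this rule is not reported here.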

Additional observations from a re-analysis of the deposited data

Results flagged for a closer look

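The cold responses of KO and WT differed by the test of the difference itself (edgeR's quasi-likelihood test, Benjamini-Hochberg adjustment) for 6 of the 8 genes, in log2 units of KO minus WT. The values were -2.64 for Ppargc1a, -0.95 for Pprc1, -0.61 for Esrra, -2.33 for Esrrb, -2.14 for Perm1 and 1.46 for Nrip1. Of all tested genes, 23.5% passed this test, 10.6% upwards and 12.9% downwards. The test no longer passed for Esrra with library totals (-0.38, adjusted p = 0.12), nor without the 2 muscle-rich libraries for Ppargc1a (-2.53, adjusted p = 0.058) and Nrip1 (1.10, adjusted p = 0.11). Of 18 upstream regulators, the same test passed for Prkaa2 (-0.71), Atf2 (-0.96), Mybbp1a (-0.58), Mef2d (-0.52) and Crtc2 (-0.67). Of 9 coactivator partners it passed for Med1 (-0.73), Ncoa1 (-0.91), Smarcd1 (-1.2) and Crebbp (-0.43). Of 13 transcription factor partners it passed for the receptors Rxrg (-0.5) and Rxrb (-0.4). Of 24 ERR and PGC-1 targets it passed for Acadm (0.58), Fabp3 (-2.34) and Vegfa (-0.59). Without the 2 muscle-rich libraries it passed downwards for 3 upstream regulators, 2 coactivator partners and 1 target, and upwards for 0 of each. In that setting 1903 genes passed in all, rather than 3581. With library totals it passed upwards and downwards for 1 and 2 upstream regulators, 1 and 3 coactivator partners and 2 and 1 targets. The median of all genes was 0.235 under that scaling. The calls on Rxrg and Rxrb were lost in both settings, where 0 transcription factor partners passed. Fabp3, Mybbp1a, Mef2d, Atf2, Ncoa1 and Smarcd1 share exon bases with other annotated genes, so their counts are uncertain.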

How the results depend on the processing

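Of 888 alternative values of the 8 genes, 793 kept their direction and their side of the threshold, 67 no longer passed, 7 newly passed and 21 changed sign. All 21 concerned values that did not pass. They were Esrrb at room temperature (0.06 with library totals, -0.51 to 0.12 leaving out 1 library), Perm1 at room temperature (-0.07 with limma voom, -0.09 to 0.16), Ppargc1b with cold in WT (0.01 with voom, -0.18 to 0.06) and Ppargc1a with cold in KO (0.05 without the 2 muscle-rich libraries, -0.33 to 0.05). The last was Ppargc1b in the difference between cold responses (0.19 with library totals, 0.03 without a filter, 0.01 with the strict filter, 0.04 with the muscle covariate, -0.16 to 0.08 leaving out 1 library). Without the 2 muscle-rich libraries, 3 of the 8 genes rather than 5 were called at room temperature and 3566 genes rather than 6138 in all, fewer libraries being used. In KO, cold then changed 1 of the 8 rather than 3 and 1214 genes rather than 2258, and the difference was called for 1903 genes rather than 3581. With the muscle covariate 1 of the 8 was called for cold in KO. Cold in KO gave 1476 genes with library totals and 4155 with voom. The cause was not tested. Leaving out 1 library gave 3 to 5 of the 8 genes at room temperature, and 1 to 3 of the 8 and 1171 to 2568 genes for cold in KO. Same-numbered libraries correlated at -0.306 to 0.229, not every library correlated best with its own number, and numbers were not taken as pairs. The replicate block, in the 9 libraries that share numbers, gave 6 of the 8 genes for KO against WT in the cold (7691 genes in all) and 6 for cold in WT (6671 genes). Ppargc1a and Nrip1 lost their calls in the cold under it (-1.04, adjusted p = 0.085, and 0.84, adjusted p = 0.058). Esrrb rests on 25 to 94 counts in 9 libraries.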
